A study of Solanum lycopersicum with 8 samples.

Results

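Chromosome 3 of tomato (Solanum lycopersicum) is described here through the open chromatin of leaves and the chromatin loops of inflorescences, with a dense island that lay away from the chromosome end in both lists. Its members were all leaf peaks on the SL4.0 sequence of chromosome 3, 7215 of 69690 listed (10.4%; 61928 lay on the other 11 chromosomes and the rest on sequence placed on none), and all loops listed on chromosome 3, 996 of 9573 (10.4%). The leaf list came from 6 ATAC-seq libraries of the terminal leaflet of young leaves, with the genotype label M82, the cultivar used throughout. The growth text of the labels names anantha-e1546 plants for the ATAC-seq as well, so the genotype of the leaf plants rests on their own label. The loop list came from 2 Hi-C libraries of inflorescences of the anantha-e1546 mutant in the M82 background, taken 10 weeks after sowing from different plants. In anantha plants inflorescences become cauliflower-like masses of meristems, so the loops are those of a mutant, meristem-rich tissue that also holds other cells.

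In ATAC-seq a transposase inserts sequencing adapters where DNA is not wrapped tightly, so peaks mark accessible chromatin regions (ACRs), which in plants lie mostly at promoters and other regulatory sequence near genes. In Hi-C, DNA ends that are close in the nucleus are cross-linked and ligated, and a loop call marks a pair of sites in contact more often than their distance predicts. Tomato chromosomes have gene-rich distal arms of euchromatin around a long, repeat-rich pericentromeric heterochromatin.

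Each list gives values of all its libraries together, so no spread between replicates exists and no difference below was tested over samples. Intervals are exact 95% counting intervals (Poisson for counts, Clopper-Pearson for shares, order statistics for medians). They treat ACRs and loops as independent, which neighbours are not, and cover counting error only. Read depth behind the peaks and contacts behind the loops are unknown. The loop list names no assembly, and its last anchor on chromosome 3 lay 1.49 Mb past the last ACR. Each list is therefore given in its own coordinates, never overlaid, and a position in one list need not be the same place in the other. No gene could be paired with a position, because the gene table at hand belongs to another assembly, and no DNA sequence of these regions was used here.

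An island was defined in each list by the same rule. In the interior, from 20 to 80% of the extent (from the first base to where the listed ACRs or anchors end), the 1 Mb window with the most members was found. The island is the run of neighbouring windows around it that each hold at least 0.5 times that count. The same level divided the rest of the chromosome into a first dense run at the start, a sparse middle, the separating windows beyond the island and a last dense run. Because these stretches were chosen on the counts, their densities are a description and carry no test.

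The leaf island was 3 Mb long, from 46 to 49 Mb of SL4.0 chromosome 3 (46000001 to 49000000), and held 635 ACRs. It began at 70.4% and ended at 75% of the extent of 65.3 Mb, leaving 16.3 Mb between it and the last ACR. Its windows held 182 ACRs at 46 to 47 Mb, 293 at 47 to 48 Mb and 160 at 48 to 49 Mb. The window before it, at 45 to 46 Mb, held 65 ACRs, so the first island window was 2.80-fold higher than its neighbour. The window after it, at 49 to 50 Mb, held 88 ACRs, and the count was 1.82-fold higher on the island side of the far border.

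The island was separated from the distal arm by 4 windows of 88, 92, 81 and 82 ACRs, from 49 to 53 Mb. The lowest of them, at 51 to 52 Mb, held 81 ACRs (interval 64.3 to 101), against 293 (260 to 329) in the island's highest window, a ratio of 3.62 (2.82 to 4.69). The separating windows were therefore not empty. At 85.8 ACRs per Mb they were denser than the sparse middle, at 29.0 ACRs per Mb, and sparser than the island, at 212 ACRs per Mb. A window as high as the island's top was next reached at 54 to 55 Mb, which also held 293 ACRs.

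**Figure D1:**
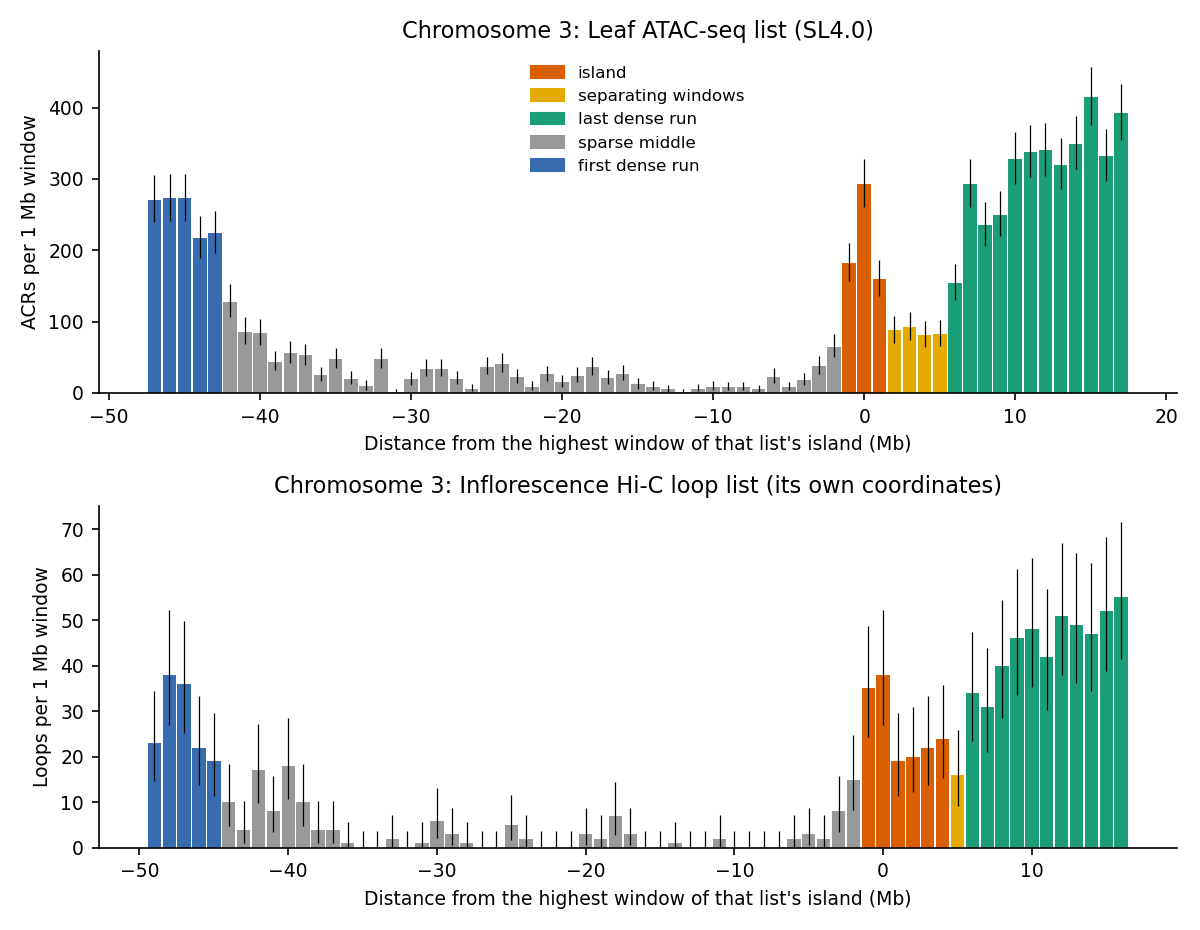
Counts in full 1 Mb windows along chromosome 3, leaf ACRs above and inflorescence loops below, against the distance in Mb from the highest window of that list's island; colours mark the stretches, thin lines are exact 95% Poisson intervals, and each panel is in its own list's coordinates. The leaf island rises to 293 ACRs between a sparse middle and separating windows of 81 to 92, and the loop island rises to 38 loops with a separating window of 16.

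In 100 kb windows the leaf island was uneven. From 45.7 to 46 Mb, still in the sparse middle, the windows held 17, 6 and 13 ACRs. From 46 to 46.4 Mb they held 3, 5, 6 and 13, and then 26 and 42 at 46.4 to 46.6 Mb. The rise thus lay inside the first island window and not at its border. The highest window, 43 ACRs at 47.8 to 47.9 Mb, was higher than any of the 40 windows of the separating stretch, whose maximum was 24. Over the island the median was 22.5 ACRs per 100 kb (quartiles 8 and 30), against 7 (4 and 11.3) in the separating stretch, 34 (25.3 and 39.8) in the last dense run and 24.5 (18 and 33.5) in the first dense run. From 48.5 to 48.8 Mb the counts dropped to 5, 1 and 0, before 17 and 25 at 48.8 to 49 Mb. The dense body of the island thus ended at about 48.5 Mb, followed by a small detached group. The last dense run likewise began inside its own first 1 Mb window: the 3 windows before 53.5 Mb held 1, 0 and 2 ACRs, and those from 53.6 to 53.8 Mb held 22 and 38.

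**Figure D2:**
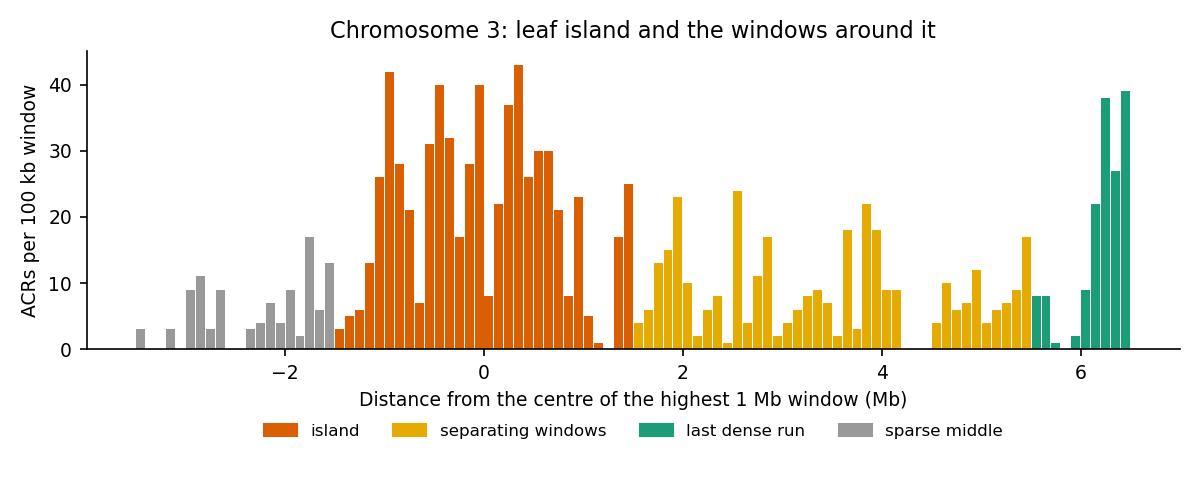
Leaf ACRs per 100 kb window around the island of chromosome 3, against the distance in Mb from the centre of the highest 1 Mb window; colours mark the stretches. Island windows reach 43 ACRs, while separating windows reach 24 at most.

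The island's ACRs covered 21.2% of its length, against 9.88% of chromosome 3 outside it. Covered shares were 6.69% in the separating windows, 31.2% in the last dense run, 2.24% in the sparse middle and 22.7% in the first dense run. By density and by cover the island thus stood nearest to the first dense run, which had 252 ACRs per Mb, and below the last dense run, which had 308 ACRs per Mb.

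Single ACRs of the island were about as wide as those outside it. The median width was 692 bp in the island (interval 651 to 748 bp), against 676 bp outside it (663 to 685 bp), and these intervals overlap. The separating windows had a median of 589 bp (542 to 627 bp), the last dense run 709 bp (686 to 722 bp), the sparse middle 610 bp (587 to 635 bp) and the first dense run 672 bp (641 to 705 bp). The sparse stretches on both sides of the island therefore held narrower ACRs than the island, with no overlap of the intervals. Within the island the medians ran from 616 to 755 bp over its 3 windows, and the widest median was that of the densest window. Over the 12 full windows of the last dense run they ran from 655 to 773 bp. ACRs wider than 2 kb made up 62 of 635 in the island (9.76%, interval 7.57 to 12.3%), against 7.72% outside it (7.09 to 8.39%), with overlapping intervals, and 6.85% of the whole leaf list.

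The island's ACRs had a stronger −log10 q, the authors' value for each peak. The median was 2.84 in the island (interval 2.69 to 3.01), against 2.56 outside it (2.52 to 2.60). It was 2.59 in the separating windows (2.45 to 2.85), 2.56 in the last dense run (2.51 to 2.62), 2.48 in the sparse middle (2.35 to 2.56) and 2.61 in the first dense run (2.52 to 2.71). The island's interval lay above that of the sparse middle and of the last dense run, and it overlapped those of the separating windows and of the first dense run. The medians of the 3 island windows, 2.87, 2.77 and 2.88, were all above the highest of the 12 full windows of the last dense run, which was 2.75. Some windows of the sparse middle stood higher still, such as 3.66 at 8 to 9 Mb, with 44 ACRs, although its median over all ACRs was 2.48. The separating window beside the island, at 49 to 50 Mb, had a median of 2.83, so the higher values did not stop at the far border. The difference between the island and the rest was 0.28 over all ACRs and 0.05 over those whose score reached the median of the list.

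A score at the ceiling of 1000, the authors' highest peak score, was given to 312 of 635 island ACRs (49.1%, interval 45.2 to 53.1%), against 43.7% outside the island (42.5 to 44.9%). Over the whole leaf list 43.8% stood at the ceiling. A q of at most 0.05 was reached by 622 island ACRs (98.0%), and by 97.2% of chromosome 3, beside 97% of the whole list. The highest q on chromosome 3 was 0.0920.

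Gaps between neighbouring ACRs were similar in the island and over the rest of chromosome 3. The median gap to the next ACR was 777 bp in the island (interval 653 to 894 bp), against 798 bp outside it (757 to 844 bp), and these intervals overlap. By stretch it was 1534 bp in the separating windows (1053 to 2183 bp), 623 bp in the last dense run (589 to 668 bp), 2166 bp in the sparse middle (1789 to 2917 bp) and 848 bp in the first dense run (744 to 986 bp). A gap is tied to the density that chose the stretches, so this order is a description. A gap below 1 kb followed 56.6% of island ACRs (interval 52.7 to 60.5%), against 54.5% outside the island (53.3 to 55.7%). The share was 44.2% in the separating windows, 60.9% in the last dense run, 38.9% in the sparse middle and 52.9% in the first dense run. Gaps below 100 bp made up 21.8% in the island (18.6 to 25.2%), 21.2% in the last dense run (19.9 to 22.5%) and 20.0% in the first dense run (17.9 to 22.4%), which cannot be told apart at these counts. The separating windows had 14.3% (10.8 to 18.5%) and the sparse middle 13% (11.1 to 15.0%). The shortest gap, 31 bp, occurred in the island, in the last dense run, in the sparse middle and in the first dense run alike, and was 32 bp in the separating windows.

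Runs of at least 4 ACRs less than 1 kb apart held 294 of the 635 island ACRs, or 46.3%, in 48 runs, against 42.2% outside the island. By stretch the shares were 22.2% in the separating windows, 51.6% in the last dense run, 20.6% in the sparse middle and 39.8% in the first dense run. The longest island run spanned 47483247 to 47504550 with 15 ACRs, which covered 84.7% of its 21.3 kb. The next spanned 47820275 to 47835626 with 12 ACRs in 15.4 kb. The longest runs outside the island lay near the far end, with 24 ACRs in 40.4 kb at 64895069 to 64935436 and 17 ACRs in 29.7 kb at 64993334 to 65023060.

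**Figure D3:**
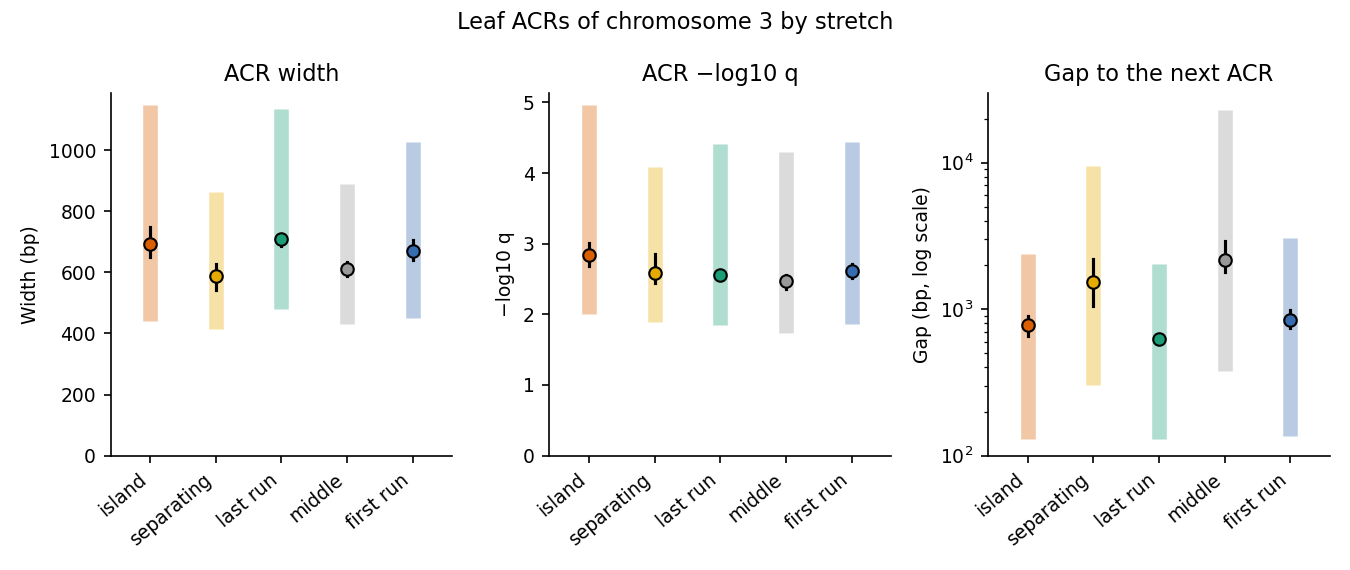
ACR width (bp), −log10 q and gap to the next ACR (bp, log scale) in the 5 stretches of chromosome 3; points are medians, black lines their 95% intervals and pale bars the quartiles. Island ACRs have a median width of 692 bp, a median −log10 q of 2.84 and a median gap of 777 bp.

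The island's strongest ACRs were not the strongest of the chromosome. Among ACRs at the score ceiling, the strongest of the island, at 48890563 to 48893969, had a −log10 q of 14 and ranked 11 of 3189 on chromosome 3. The island held 312 of those 3189, so this best rank is about what its share alone would give. Values of 13.9, 13.9, 13.4 and 12.7 followed, for the ACRs starting at 46486188, 47374830, 46705600 and 48490102 and ending at 46488037, 47375899, 46714740 and 48491272 in the same order. These 5 were spread over all 3 island windows, and the first lay in the small detached group beyond 48.8 Mb. Outside the island the strongest 5 fell in several stretches. The last dense run held those starting at 56173410, 61200035 and 64707632, whose −log10 q was 17.0, 16.8 and 16.7. The sparse middle held 19066543 to 19068752, whose value was 16.1, and the first dense run 3612169 to 3614793, whose value was 15.6. The ACR in the sparse middle stood in a 1 Mb window of 34 ACRs.

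The widest island ACR, 9141 bp at 46705600 to 46714740, was also the fourth strongest in q. The next widest were 6412 bp at 47137981 to 47144392, with a −log10 q of 6.18, and 5953 bp at 47090903 to 47096855, with 4.42. The widest ACRs outside the island were all in the last dense run, 19431 bp at 59224860 to 59244290, 14156 bp at 64874383 to 64888538 and 12015 bp at 60433865 to 60445879. The widest island ACR ranked 11 of 7215 by width. With 635 of the 7215 in the island, this rank too is about what its share alone would give.

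The longest stretches without an ACR inside the island were 165 kb at 48659593 to 48824522, 149 kb at 48510786 to 48659343 and 131 kb at 46054624 to 46186086. The first 2 of these, side by side, form the gap between the island's body and the small group after it. On the whole of chromosome 3 the longest were 884 kb at 34989133 to 35872661, 856 kb at 16166057 to 17022067 and 832 kb at 37518194 to 38350648.

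The arms of chromosome 3 were unequal in open chromatin. The 5 neighbouring windows with the fewest ACRs, 29 in all, lay at 34 to 39 Mb, and the arms were taken as what lies on either side of them. The last arm, 26.3 Mb, held 4935 ACRs, or 188 per Mb, and the first arm, 34 Mb, held 2251 ACRs, or 66.2 per Mb. Windows that reached the island level of 147 ACRs numbered 15 in the last arm and 5 in the first. In the first arm the counts were 271, 273, 273, 217 and 224 ACRs from 0 to 5 Mb and 128 at 5 to 6 Mb, then 86 and 84, and no later window of that arm held more than 56. The first arm thus declined toward the interior with no other dense stretch. In the last arm the highest window, at 62 to 63 Mb, held 415 ACRs.

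The sparse middle was itself not even. From 5 to 14 Mb it held 60.3 ACRs per Mb with a median −log10 q of 2.61, and from 14 to 46 Mb it held 20.1 ACRs per Mb with a median −log10 q of 2.29. The windows at 16 to 17 Mb and at 35 to 36 Mb each held 1 ACR. No full window of chromosome 3 was without an ACR, and 13 held at most 10.

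The loop list showed an internal island as well, in its own coordinates and with less sharp borders. The rule gave a run from 48 to 54 Mb (48000001 to 54000000), 6 Mb long, with 158 loops, or 26.3 loops per Mb, against 13.8 per Mb on chromosome 3 outside it. Its windows held 35, 38, 19, 20, 22 and 24 loops. The window at 50 to 51 Mb stood exactly at the level of 19 loops, so the reach of the island beyond 50 Mb rests on it. The island therefore consisted of a peak of 73 loops in the first 2 windows and a shoulder of 85 loops in the other 4. The window before it, at 47 to 48 Mb, held 15 loops, and the window after it, at 54 to 55 Mb, held 16 loops (interval 9.15 to 26.0), against 38 (26.9 to 52.2) in the highest window at 49 to 50 Mb. The ratio of these 2 windows was 2.38, with an interval of 1.29 to 4.56. A window as high was next reached at 57 to 58 Mb, with 40 loops.

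The borders depended on the level and the windows chosen, most of all the far border of the loop island. With a level of 2/3 of the highest window the island was 48 to 50 Mb, with 73 loops, and without loops longer than 200 kb it was also 48 to 50 Mb, with 73 loops. With a level of 1/3, or at the chromosome's mean of 14.9 loops per Mb, the run went on from 47 Mb to the end of the chromosome with no break. The leaf island was 47 to 48 Mb, with 293 ACRs, at the level of 2/3, and 46 to 49 Mb at the level of 1/3 and at the chromosome's mean of 110 ACRs per Mb. In 0.5 Mb windows and in 1 Mb windows shifted by 0.5 Mb the leaf island was 46.5 to 48.5 Mb. In 2 Mb windows it was 46 to 50 Mb.

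Over the island as a whole, loops were longer than those of the dense runs. The median span was 45 kb in the island (interval 35 to 60 kb), against 158 kb in the separating window (90 to 240 kb), 10 kb in the last dense run (10 to 10 kb), 140 kb in the sparse middle (110 to 185 kb) and 10 kb in the first dense run (10 to 15 kb). The first dense run is the stretch closest in density, at 27.6 loops per Mb, and its interval did not overlap that of the island. Without loops of 10 kb, the shortest span listed, the medians were 70 kb in the island (60 to 90 kb), 30 kb in the last dense run (25 to 35 kb) and 30 kb in the first dense run (30 to 35 kb). Spans therefore differed in the longer loops too.

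The shortest loops made up a smaller share in the island than in the dense runs. Loops of 10 kb numbered 43 of 158 there (27.2%, interval 20.4 to 34.9%), against 55.2% in the last dense run (50.9 to 59.4%) and 52.2% in the first dense run (43.5 to 60.7%), with 40.9% in the whole loop list. The sparse middle had 14.6% (9.26 to 21.4%) and the separating window 3 of 16. Per length, the island held 7.17 loops of 10 kb per Mb, against 6.48 outside it. This density was 3 in the separating window, 25.3 in the last dense run, 0.488 in the sparse middle and 14.4 in the first dense run. Of all other loops the island held 19.2 per Mb, against 7.30 outside it, with 20.5 in the last dense run and 13.2 in the first dense run. The island and the last dense run thus stood far apart in the 10 kb loops and close together in the others. The island's 19.2 per Mb includes the 17 nested loops described below, none of them of 10 kb, so this closeness rests in part on them.

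Loop spans grew across the island. From 48 to 54 Mb the window medians were 20, 35, 50, 77.5, 65 and 330 kb, and the shares of 10 kb loops were 42.9, 28.9, 26.3, 30.0, 22.7 and 4.17%. The peak of the first 2 windows had a median span of 25 kb (interval 15 to 35 kb) and the shoulder 90 kb (70 to 120 kb). The peak's interval met that of the first dense run, 10 to 15 kb, so the longer spans lay mostly in the shoulder. In the last dense run the window medians were 10 to 25 kb. Without the last window of the island, at 53 to 54 Mb, the median span over the island was 35 kb (25 to 45 kb) and the share of 10 kb loops 31.3% (23.6 to 39.9%), still outside the intervals of both dense runs. In the peak alone the share of 10 kb loops was 35.6% (24.7 to 47.7%), which overlaps the interval of the first dense run but not that of the last.

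That last window held a group of nested loops. In it, 17 loops had midpoints from 53275000 to 53382500, a range of 108 kb, while their spans ran from 120 to 625 kb with a median of 430 kb. Their first anchors lay between 52985001 and 53250000 and their second anchors between 53340001 and 53625000. Of the 136 pairs of these loops, 102 were nested, 34 crossed and 0 lay side by side. Nested means that the anchors of the shorter loop lay within or at those of the longer. The loops were picked by their midpoints. With spans of at least 120 kb and midpoints within 108 kb, loops cannot lie side by side, so the 0 was fixed by this choice. Close midpoints with such different spans also favour nesting, so the count of nested pairs is no separate result. The group included 14 of the 15 island loops longer than 200 kb. The 3 longest island loops belonged to it, 625 kb from the bin at 52985001 to 52990000 to the bin at 53610001 to 53615000, 500 kb from 53035001 to 53040000 to 53535001 to 53540000, and 495 kb from 53030001 to 53035000 to 53525001 to 53530000. The group was noticed after the loops had been seen, so its values are a description. Spans and midpoints are distances in the coordinates of the loop list, whose assembly is not named. Whether the plants carry the sequence in that order was not tested, and a different order would change the spans and the share of long loops.

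Loops longer than 200 kb made up 15 of 158 in the island (9.49%, interval 5.41 to 15.2%), 2 of 540 in the last dense run (0.370%), 51 of 144 in the sparse middle (35.4%, interval 27.6 to 43.8%) and 1 of 138 in the first dense run (0.725%). In the whole list 9.9% of loops were that long. Without the nested group, 1 of the 141 remaining island loops was longer than 200 kb (0.709%), so the island's share rested on that group. The longest loops of chromosome 3 were in the sparse middle on the other arm, 945 kb from the bin at 13070001 to 13075000 to the bin at 14015001 to 14020000, 850 kb from 9065001 to 9070000 to 9915001 to 9920000, and 780 kb from 9150001 to 9155000 to 9930001 to 9935000.

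**Figure D4:**
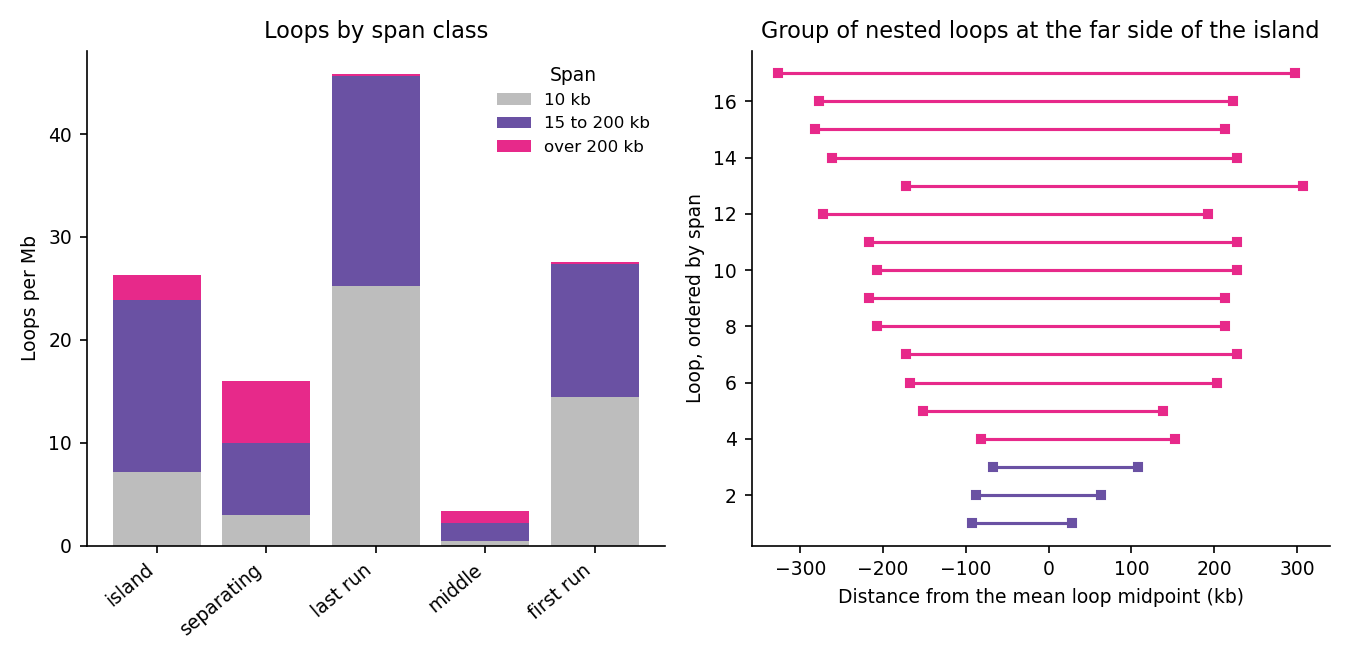
Left, loops per Mb in the 5 stretches of chromosome 3, divided by span; right, the 17 nested loops at the far side of the island, each line joining the midpoints of its anchor bins, against the distance in kb from the mean loop midpoint (pink over 200 kb, purple 200 kb or less). The island has 7.17 loops of 10 kb per Mb, against 25.3 in the last dense run, and 14 of the nested loops are longer than 200 kb.

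No listed loop joined the island to another stretch. All 158 island loops had both anchors inside it, and neither border was crossed. This says little on its own, since few loops crossed any given position: over the 5 whole-Mb positions inside the island 0 to 2 loops crossed, over the 11 in the last dense run 0 to 4, and 4 of those 11 were crossed by none. Of all 996 loops, 1 joined different stretches, the first dense run and the sparse middle.

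Shared anchors were not distinguishable between the island and the rest. Its loops used 249 bins of 5 kb, 20.8% of the bins in the island, against 36.3% in the last dense run, 2.97% in the sparse middle and 24.2% in the first dense run. Of the 249 bins, 52 joined at least 2 loops (20.9%, interval 16.0 to 26.5%), against 18.6% outside the island (16.6 to 20.8%), and these intervals overlap. The share was 22.2% in the last dense run (19.5 to 25.2%) and 12.8% in the first dense run (8.87 to 17.7%). It was 12.5% in the sparse middle (8.74 to 17.3%) and 4 of 28 bins in the separating window. Without 10 kb loops the share was 19.7% in the island and 13.3% outside it. The busiest bin of chromosome 3, at 53540001 to 53545000, lay in the island and joined 5 loops of 70 to 490 kb, 4 toward lower and 1 toward higher positions. The 4 loops toward lower positions, of 400 to 490 kb, belong to the nested group. Outside the island the busiest bins joined 4 loops each, at 58210001 to 58215000, 58220001 to 58225000, 63725001 to 63730000 and 66255001 to 66260000, all in the last dense run.

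The arms were unequal in loops too. The 5 neighbouring windows with the fewest loops, 1 in all, lay at 33 to 38 Mb. The last arm held 746 loops, or 25.9 per Mb, and the first arm 249, or 7.55 per Mb. Windows with at least 19 loops numbered 17 in the last arm and 5 in the first, where the counts from 0 to 5 Mb were 23, 38, 36, 22 and 19. The first arm had another, weaker rise, with 17 loops at 7 to 8 Mb and 18 at 9 to 10 Mb, separated from the start by 4 loops at 6 to 7 Mb. From 5 to 14 Mb the median span was 148 kb, with 25 of 76 loops longer than 200 kb and 9 of 10 kb. From 14 to 46 Mb there were 45 loops in 32 Mb, and 16 windows of chromosome 3 held no loop. The highest window, with 55 loops, was at 65 to 66 Mb, the last full window, where 38 loops (69.1%) were of 10 kb.

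Set against the other 11 chromosomes, chromosome 3 ranked 3 of 12 by density in both lists. It had 110 ACRs per Mb, against 89.1 ± 23.5 on the others (SD, n = 11 chromosomes), and 14.9 loops per Mb, against 11.8 ± 3.84. Chromosomes are parts of the same list and not replicates. An exact two-sided permutation over which chromosome is set against the other 11 can give no p below 0.0833, so no measure could pass 0.05, and ranks are given instead. Over 25 measures compared in this way the smallest adjusted p (Benjamini-Hochberg) was 0.694. ACR density gave an exact permutation p = 0.417, and loop density likewise 0.417.

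In most measures of the make-up of its ACRs and loops, chromosome 3 lay within the range of the other chromosomes. The share of ACRs wider than 2 kb was an exception, at 7.90%, the highest of 12, against 5.01 to 7.42% on the others. Its median ACR width of 677 bp ranked 2 of 12, against 646 to 688 bp on the others, its median −log10 q of 2.58 ranked 5, against 2.51 to 2.63, and its median gap of 798 bp ranked 11, against 718 to 1124 bp. Its median loop span was 20 kb, against 15 to 35 kb. Loops of 10 kb made up 43.9%, against 33.8 to 46.1%, and bins that joined at least 2 loops 19.0%, against 15.3 to 21.9%. Its ends, the first and last 20% of the extent, were 5.38-fold denser in ACRs than its interior, rank 10 of 12, against 1.55- to 9.71-fold on the others. For loops the ratio was 5.26, also rank 10, against 1.67 to 16.8. The leaf island and nearly all of the loop island lie in the interior by this division and count toward the lower term of both ratios.

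Chromosome 3 combined a high interior window with a deep drop beyond it. The highest interior window of chromosome 3, with 293 ACRs, reached 70.6% of the chromosome's highest window, rank 2 of 12, against 19.4 to 87.4% on the others. Chromosomes 1, 2 and 6 also had interior windows above 50% of their highest, with 266, 354 and 251 ACRs, but on those 3 the dense run around that window reached the end of the chromosome. On chromosome 1 the lowest window before one as high held 223 ACRs, and on chromosome 2 it held 288. On chromosome 6 the next window was already as high. The difference between the highest interior window and the separating lowest was 212 ACRs on chromosome 3, the largest of 12, against 0 to 82 on the others. This measure was added after the counts had been seen, on a chromosome chosen for its island, so its rank is a description. A drop also cannot exceed the highest interior window, which held 66 to 130 ACRs on chromosomes 4, 5 and 7 to 12. Those chromosomes could therefore not have reached 212. On chromosomes 1, 2, 4, 6 and 8 the highest interior window lay at 78.7 to 79.9% of the extent, beside the 80% limit. The dense run around it reached the chromosome end there, so the drop describes the edge of that run. An island further in on those chromosomes would not be measured. As a ratio the drop ranked 6 of the 10 chromosomes that had one: 5 had a higher ratio, but their highest interior windows held 66 to 99 ACRs.

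In the loop list the counts were smaller. The highest interior window of chromosome 3, with 38 loops, reached 69.1% of the chromosome's highest, rank 3 of 12, against 17.3 to 82.8% on the others. Chromosomes 1, 2 and 6 again had interior windows above 50% of their highest, with 40, 53 and 40 loops, in runs that reached the end. The loop run of chromosome 3 also reached the end in 2 Mb windows, at a level of 1/3 and at the chromosome's mean. Its separation thus depends on the setting, and other settings were not tried on the other chromosomes. On chromosomes 1, 2, 4 and 6 the highest interior window lay at 77.2 to 79.5% of the extent. As for ACRs, an island further in would not be measured there. The drop to the separating window was 22 loops on chromosome 3, the largest of 12, against 0 to 18 on the others, again a description by a measure added after the counts had been seen. With windows of 16 to 38 loops this order rests on few counts, and on the 7 chromosomes with a higher ratio or an empty separating window the highest interior windows held 7 to 22 loops.

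**Figure D5:**
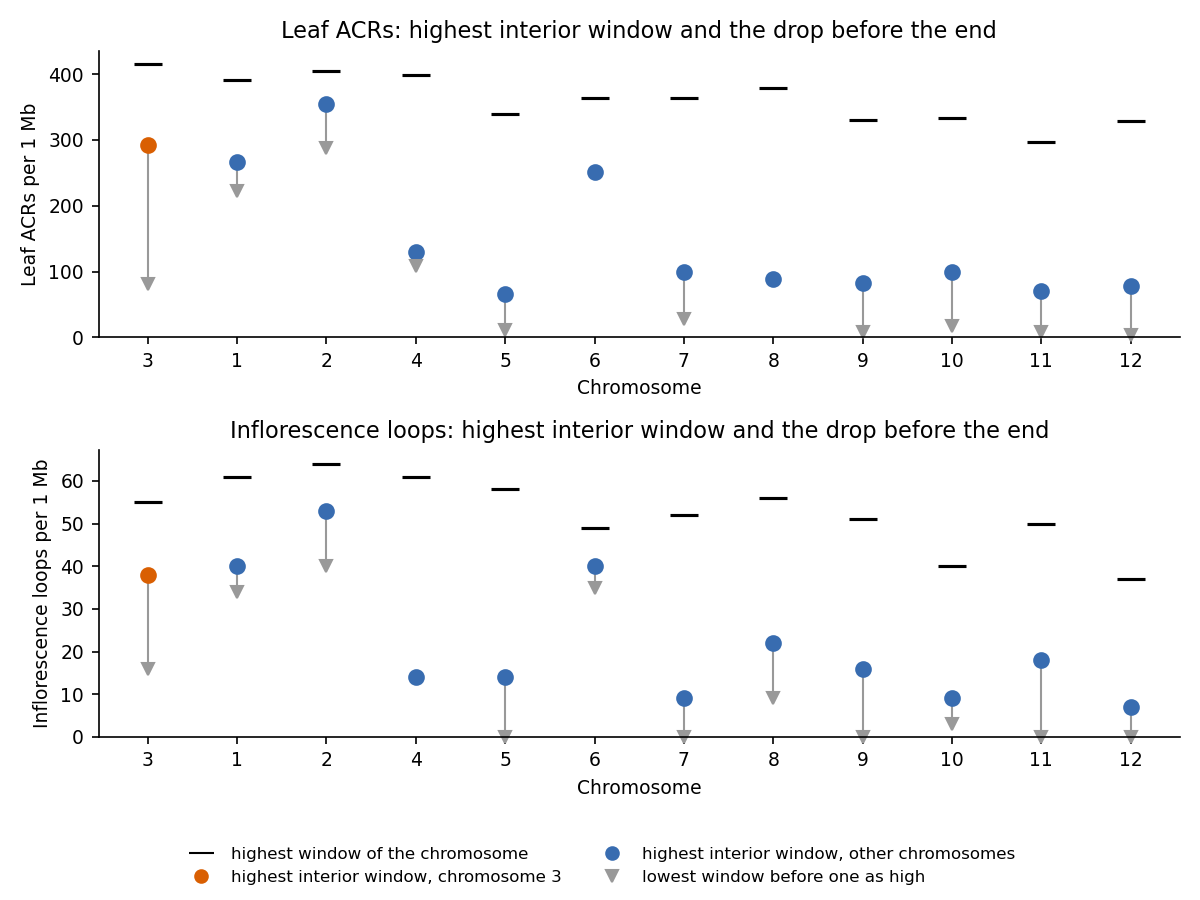
Highest interior 1 Mb window (dots; orange, chromosome 3; blue, the other 11), lowest window before one as high toward the nearer end (triangles, absent where the next window was as high) and highest window of the chromosome (bars), for leaf ACRs above and inflorescence loops below. On chromosome 3 the dots stand at 293 ACRs and 38 loops and the triangles at 81 ACRs and 16 loops, the largest differences in counts among the 12 chromosomes in each list. A difference cannot exceed the height of its dot, so low dots allow small differences only. On chromosomes 1, 2, 4, 6 and 8 the ACR dot lies near the edge of the interior, in a run to the end.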

How the data were processed

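Per the labels' protocols, ATAC-seq used 6 samples of 1 g of leaflets with 100000 nuclei per transposase reaction, and Hi-C used an Arima kit. Genrich 0.6 and HiC-Pro 3.1.0 are listed in the submitters' processing notes, with BWA and Trimmomatic and with bedtools, SAMtools and Picard; their settings and the assembly of the loops were not found. Judged by its name, the deposited peak list came from Genrich and the loop list from FitHiC. The authors deposited, for each peak, a start, an end, a whole-number score with a ceiling of 1000 and a −log10 q, and, for each loop, the midpoints of 2 bins of 5 kb with no strength. The authors' score and −log10 q were used within the list alone.

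BED starts were taken as counted from 0 and are given counted from 1. Members were counted by midpoint in full 1 Mb windows (Python 3.11.15, numpy 2.4.6, pandas 2.3.3, scipy 1.17.1). The island search was tested on simulated lists with dense ends, a sparse middle and borders on whole Mb. Their island windows all had the same density, well above the island level. That test could not judge border windows close to the level, such as the leaf window of 160 ACRs against a level of 147. Lists as sparse as the loop list were not simulated. Alternatives changed the peak set, loop set, window, island level and size of the ends. Members, lists and measures were chosen with earlier results of these data known. Named items are the 5 strongest ACRs by −log10 q at the score ceiling and the 3 widest, inside and outside the island, the 3 longest gaps and loops, and the busiest bins; close runs and the nested group were added after seeing values.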

Additional observations from a re-analysis of the deposited data

How the results depend on the processing

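Of 76 alternative values for 14 results, 15 moved: a count by over 1.5 times, a ratio out of its interval, or a difference by over 0.5 times the width of the island's interval. The comparisons with the other 11 chromosomes kept their direction, but their sizes varied and their p could not pass in any setting: the ACR density difference was 11.1 per Mb without scores below the median, against 21.4, and the loop density difference 1.33 per Mb without 10 kb loops, against 3.07. The log2 difference in the ratio of ends to interior was −0.38 for ACRs with ends of 10%, against −0.16, and −1.16 for loops without those longer than 200 kb, against −0.60. The difference in gap, −21.0 bp and within its interval, changed sign to 42.5 bp with ACRs of at least 500 bp. The leaf island held 364 ACRs when scores below the list's median were left out, a setting that lowers counts and densities by construction. Its borders stayed at 46 to 49 Mb there, with a drop of 3.90-fold. With ACRs of at least 500 bp it held 337 and ended at 48 Mb, and with windows at 2/3 of the highest it held 293. Its drop was 8.72-fold in 0.5 Mb windows, 2.75-fold in 2 Mb windows and 5.02-fold in 1 Mb windows shifted by 0.5 Mb, against 3.62-fold as reported. The loop island held 73 loops without loops longer than 200 kb, 61 in 0.5 Mb windows, 68 in shifted windows and 73 at 2/3 of the highest, against 158. In 2 Mb windows, at 1/3 of the highest and at the chromosome's mean it ran to the chromosome end, so 9 values could not be given. At 2/3 of the highest, the island minus the rest was 79.0 bp in ACR width, 10.0 kb in loop span and −8.91 percentage points in 10 kb loops, against 16.0 bp, 30.0 kb and −19.8 as reported. Without scores below the median the difference was 0.04999 in −log10 q and −799.5 bp in gap, against 0.28 and −21.0 bp. The causes were not tested. No paired analysis was possible because the lists hold no value of a single library, and for the same reason no replicate could be left out. Depth is unknown, so an absent ACR or loop sets no limit of detection.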

Other observations

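Groups of long loops with midpoints close together occurred on other chromosomes too, so the nested group of chromosome 3 was not the only one. Loops longer than 200 kb were counted by midpoint in 100 kb windows of the whole loop list. The 100 kb window of chromosome 3 that starts at 53300001 held 10 of them, with spans of 235 to 625 kb and a median of 425 kb. A window on chromosome 8, at 57800001 to 57900000, held 12, with spans of 205 to 305 kb. Windows on chromosome 9 at 45800001 to 45900000, on chromosome 10 at 55600001 to 55700000 and on chromosome 11 at 35200001 to 35300000 held 9 each, with medians of 650, 315 and 355 kb. The window on chromosome 9 lies at 45 to 46 Mb, which was also the highest interior window of that chromosome, with 16 loops, and the window on chromosome 11 lies at 35 to 36 Mb, the highest interior window there, with 18 loops. Of the windows with any such loop, 421 held 1 and 98 held 2. These counts were made after the group on chromosome 3 had been seen and carry no test.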
